A study of Mus musculus with 12 samples.

Results

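The genes described here are 10 transcriptional regulators: the class II histone deacetylases Hdac4, Hdac5, Hdac7 and Hdac9, the Dachshund factors Dach1 and Dach2, the Runt factors Runx1, Runx2 and Runx3, and the Runt partner Cbfb. They were taken by gene name, or by the accession given for the probe, from the 27597 genes or names on the array. The array carried 23 probes for them. Of these, 14 were well above background on every array of at least 1 group, and 10 were so on all 12 arrays. All 10 genes were therefore among the 15234 genes tested, while 7 of the 23 probes were never well above background. The study measured total RNA of whole gastrocnemius, a calf muscle, from adult male CD1 mice on 12 one-colour arrays. There were 4 groups of 3 arrays: wild type (WT) control muscle, WT muscle denervated for 14 days, control muscle of Smad4 knockout (KO) mice, and KO muscle denervated for 14 days. Control muscle was innervated, and the submitters state that each experiment used other animals. Which part of Smad4 was deleted, in which cells and by which driver is not given in the sources used here, and the samples are of whole muscle with its vessels, nerves and resident cells.

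Class IIa deacetylases bind Mef2 transcription factors and hold their target genes silent, mainly by bringing in corepressors, because their own catalytic activity is weak. Kinases phosphorylate them, 14-3-3 proteins then bind them, and they leave the nucleus. In skeletal muscle, loss of the nerve is known to raise Hdac4, which represses Dach2. Dach2 in turn represses myogenin, the factor that switches on acetylcholine receptor genes. Dach proteins act with homeobox factors of the sine oculis family and their Eya coactivators. Runx proteins bind DNA as a pair with Cbfb, which does not touch DNA itself and steadies its partner; Runx1 is known to be induced in denervated muscle, Runx2 drives bone formation, and Runx3 is best known from T cells and sensory neurons.

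Smad4, the shared partner of the TGF-beta and BMP signal transducers, was lower in KO than in WT muscle. The log2 difference in the limma fit was -1.46 in control (adjusted p = 0.0186) and -1.42 in denervated muscle (adjusted p = 0.0016). The labels name the knockout and give no RNA level. Smad4 signal stayed well above background on all 3 arrays of each KO group. The 75th percentile of the signal ranged from 219 to 364 over the 12 arrays, 50.2% to 56.4% of probes were well above background, and no spot was saturated. All 7 muscle fibre markers were measured; after denervation 1 of 7 fell in WT (median change -0.16) and 6 of 7 fell in KO (median -0.92), and their part in the falls of the 10 genes was not tested. Their summed signal was 1645 to 2594 times the 75th percentile in WT control, 1375 to 2083 in WT denervated, 2513 to 2770 in KO control and 1135 to 1609 in KO denervated muscle. Of 7 Schwann cell markers, 5 fell in each genotype (median -2.46 in WT and -1.78 in KO), with a summed signal of 16.7 to 27.4 in WT control, 3.96 to 5.79 in WT denervated, 15.0 to 31.96 in KO control and 5.81 to 6.61 in KO denervated muscle; their part was likewise not tested. Over all genes tested, 20.6% fell in WT and 23.2% in KO. The arrays lay on 4 slides scanned on 2 days. Every WT control array was scanned on day 1, whereas WT denervated arrays 2 and 3 shared slide 2, scanned on day 2. Of the KO arrays, day 2 held the first control and the second denervated one. Denervation in WT was therefore partly mixed with slide and scan day, and so was genotype in denervated muscle. The only within-slide pair for WT denervation had the sign of the fit for 10 of 10 genes. The 2 within-slide pairs for KO denervation did so for 20 of 20 gene and slide combinations. These pairs are also part of the fit, so their signs are not a separate check. Levels are given as the log2 of the signal over the 75th percentile of the same array, so 0 is the level of that percentile. Replicates 1, 2 and 3 are given in that order, and levels are compared only within a probe.

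In WT muscle, 8 of the 10 genes changed after 14 days without the nerve. Hdac4, Runx1 and Runx2 rose, and Hdac5, Hdac7, Hdac9, Dach1 and Dach2 fell. Of all genes tested, 39.2% changed in this comparison, 18.7% with higher and 20.6% with lower levels in denervated muscle. The groups of arrays did not overlap for 9 of the 10 genes, against 53.0% of all genes. In KO muscle 9 of the 10 genes changed, 3 upward and 6 downward: the same genes and Runx3, which was lower. The background there was 46.9%, with 23.7% higher and 23.2% lower, and groups did not overlap for 9 of 10 genes against 56.7% of all genes. The 10 genes were chosen with earlier results of these data known, so setting them against all genes is a description only. The median change of the 10 genes was -0.81 in WT and -0.84 in KO, against -0.02 and 0.00 over all genes tested. Setting genes that were not above background in 1 group at their bound left both medians as they were. Those genes kept their side of the middle values, so the unchanged medians say nothing about the size of their changes. Under normexp background correction, which adds an offset of 50 to the signal, 3 of the 10 genes passed in each genotype: Hdac4, Hdac5 and Runx1. The calls of Hdac7, Hdac9, Dach1, Dach2 and Runx2, and that of Runx3 in KO, were lost there, with adjusted p from 0.0734 for Hdac9 in KO to 0.989 for Dach2 in WT. Dach2 was kept by the filter only through WT control muscle, and Runx1 and Runx2 only through denervated muscle. Their calls rest on a fit to measured signals that were partly not above background. In whole muscle, fewer cells of a type and less RNA per cell cannot be told apart.

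Hdac4, the deacetylase that accumulates in denervated muscle, rose in both genotypes. Its signal was 1426, 1478 and 1021 in WT control muscle and 10729, 7686 and 11151 in WT denervated muscle. The KO signal was 1411, 1414 and 1208 in control muscle and 13045, 10189 and 11943 in denervated muscle. Every denervated array lay far above every control array, and the 3 arrays of a group were close to each other. The scaled log2 levels were 2.28, 2.38 and 2.07 in WT control and 5.12, 5.14 and 5.22 in WT denervated muscle. The change was 2.92 ± 0.14 (SE), or 7.54-fold, in WT (adjusted p = 2.08e-07) and 2.75 ± 0.14, or 6.75-fold, in KO (adjusted p = 2.57e-07). Its single probe, A_51_P417839, lies at chr1:93763383-93763442 on the minus strand of mm8. The exon or untranslated region under each probe was not annotated here, and the coordinates are those listed in the array files. The 250 bases before the gene's listed start are shown because this is the class IIa deacetylase of the set that rose. They hold none of the Runx, E-box CANNTG and MEF2 sites that were searched (RefSeq, GRCm38.p6, chr1:92180342-92180591, minus strand):
Hdac4: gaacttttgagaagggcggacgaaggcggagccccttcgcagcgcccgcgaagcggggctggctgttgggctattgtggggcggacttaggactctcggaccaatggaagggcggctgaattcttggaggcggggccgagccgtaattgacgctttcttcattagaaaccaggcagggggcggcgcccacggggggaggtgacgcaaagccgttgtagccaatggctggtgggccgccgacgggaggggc

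The other 3 class IIa deacetylases, Hdac5, Hdac7 and Hdac9, were lower in denervated muscle. Hdac5, a close relative of Hdac4 that also binds Mef2 factors, stood at 3.78, 3.49 and 3.97 in WT control and at 2.60, 3.02 and 3.05 in WT denervated muscle. Its KO levels were 4.27, 4.0 and 3.84 in control and 2.76, 3.11 and 2.88 in denervated muscle. No denervated array reached a control array in either genotype. Hdac5 fell by 0.86 ± 0.19 in WT (adjusted p = 0.0041) and by 1.12 ± 0.19 in KO (adjusted p = 5.98e-04). Its probe, A_51_P278893, lies at chr11:102011844-102011898 on the minus strand of mm8. The 250 bases before its start are shown because, of the 17 promoter windows listed for the 10 genes, this is the one that holds a MEF2 site on either strand, in capitals; 3.187% of the 32851 windows listed for all genes hold one (RefSeq, GRCm38.p6, chr11:102230173-102230422, minus strand):
Hdac5: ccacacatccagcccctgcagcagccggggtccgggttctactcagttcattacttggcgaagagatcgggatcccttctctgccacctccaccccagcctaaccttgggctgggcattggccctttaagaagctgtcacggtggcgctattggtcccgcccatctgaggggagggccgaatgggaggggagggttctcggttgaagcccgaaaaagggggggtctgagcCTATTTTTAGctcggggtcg

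Hdac7, which is needed in vessel walls and thymocytes, had a small change on both of its probes. The brighter probe, A_52_P435016 (chr15:97621045-97621104, mm8, minus strand), gave 0.30, 0.40 and 0.40 in WT control and -0.41, -0.99 and 0.21 in WT denervated muscle. In KO mice the same probe gave 0.18, 0.53 and 0.59 in control and -0.30, -0.25 and -0.15 in denervated muscle. The WT denervated arrays were spread widely, and replicate 3 lay just under the WT control values. Hdac7 fell by 0.76 ± 0.25 in WT (adjusted p = 0.0296) and by 0.67 ± 0.25 in KO (adjusted p = 0.0433). A fit with slide as a block gave adjusted p of 0.188 in WT and 0.126 in KO, and without the second WT denervated array the WT fall was 0.47 with an adjusted p of 0.101. Leaving out any one of 4 other WT arrays also ended the WT call, with adjusted p between 0.057 and 0.073, and in KO the call was lost without any one of 9 arrays (adjusted p from 0.053 to 0.12). The dimmer probe, A_51_P403234, had differences of -0.77 in WT and -0.74 in KO (adjusted p = 0.0593 and 0.0594 with each kept probe tested on its own). Where 20.6% of all genes fell in WT and 23.2% in KO, 6 of 9 endothelial markers fell in WT and 7 in KO. Their summed signal, in units of the array's 75th percentile, was 33.3 to 39.6 in WT control and 14.8 to 22.3 in WT denervated muscle, and 36.0 to 38.0 and 17.98 to 23.1 in KO muscle. Their part in the Hdac7 result was not tested.

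Hdac9, whose locus also makes a shorter product without the deacetylase domain, fell on the probe that was measured on all 12 arrays, A_52_P411780 (chr12:34956889-34956948, mm8, minus strand). It stood at -1.50, -1.31 and -1.33 in WT control and at -2.37, -2.24 and -3.08 in WT denervated muscle. Levels in KO muscle were -0.76, -1.28 and -0.93 in control and -2.93, -3.17 and -3.25 in denervated muscle. The control arrays of KO mice were the higher and their denervated arrays mostly the lower, so the KO groups lay further apart. Hdac9 fell by 1.18 ± 0.22 in WT (adjusted p = 0.0016) and fell by 2.13 ± 0.22 in KO (adjusted p = 2.32e-05). A second probe, A_51_P204031 (chr12:34974639-34974698), was above background on 2 of 3 WT control and all 3 KO control arrays and on no denervated array. There the level was at least 2.87-fold lower in denervated WT and at least 2.94-fold lower in denervated KO muscle, the dimmer arrays being set to the lowest signal among probes well above background on each array wherever that was the higher value. The WT bound rests on control replicate 2 and was 1.47-fold without it. The remaining Hdac9 probes, A_52_P76792 and A_51_P255467, lie further along the gene in its direction of transcription, at chr12:34632829-34632860 and chr12:34636224-34636283. They carried another accession and were above background on none of the 12 arrays.

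**Figure D1:**
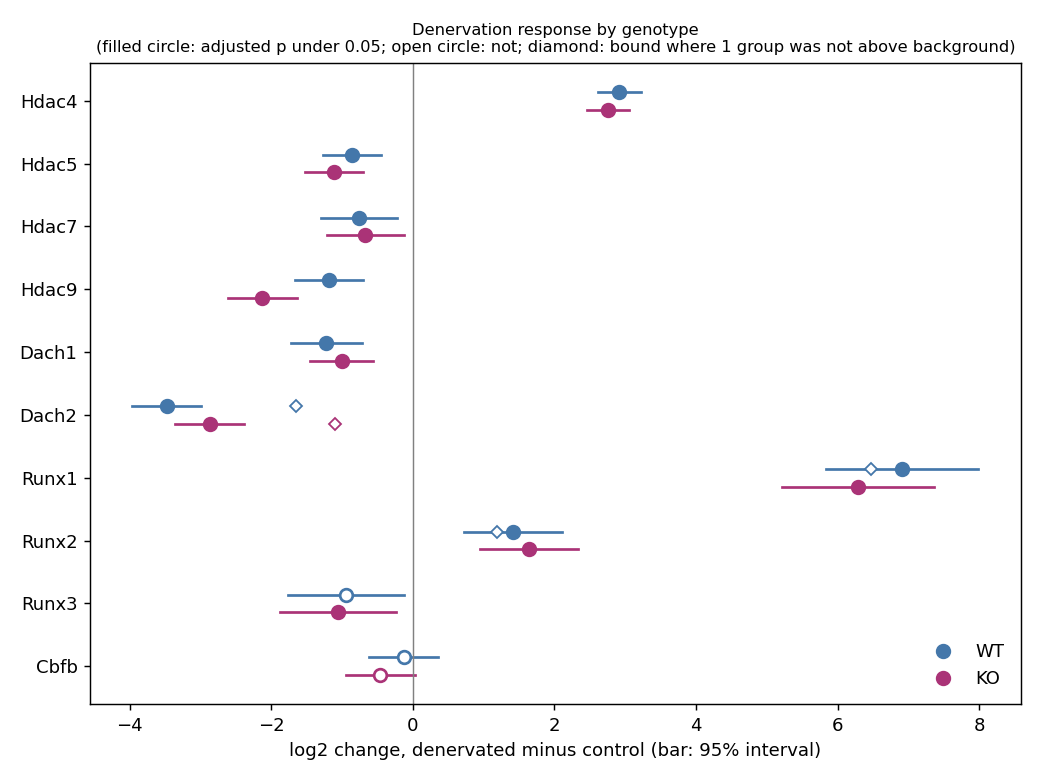
Fitted log2 change, denervated minus control, with its 95% interval for the 10 genes in WT and KO mice; filled circles passed an adjusted p of 0.05 and open circles did not, and diamonds are bounds for genes whose dimmer group was on no array above background. Hdac4, Runx1 and Runx2 lie to the right of 0 in both genotypes, and Dach2 is bounded at 1.65 below 0 in WT and 1.11 below 0 in KO.

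Both Dachshund genes, which encode DNA-binding corepressors, were lower in denervated muscle. Dach1 on probe A_52_P309022 (chr14:96670075-96670134, mm8, minus strand) stood at -0.25 and -0.33 in WT control muscle, the spot of replicate 3 being an outlier that was left out, and at -1.49, -1.49 and -1.56 in WT denervated muscle. Dach1 in KO muscle was at -0.20, -0.93 and -0.42 in control and at -1.42, -1.3 and -1.84 in denervated muscle. Control and denervated arrays were apart in both genotypes. Dach1 fell by 1.22 ± 0.23 in WT (adjusted p = 0.0020) and by 1.01 ± 0.20 in KO (adjusted p = 0.0025); on the series' own value table the KO call was lost (adjusted p = 0.137). The second Dach1 probe, A_51_P356552, was above background on no array.

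Dach2, the repressor between Hdac4 and myogenin, was detected only with the nerve intact. On probe A_51_P126167 (chrX:109952435-109952494, mm8, plus strand) the signal was 37.7, 49.1 and 29.99 in WT control and 4.50, 2.88 and 3.1 in WT denervated muscle. The KO signals were 29.9, 16.0 and 26.3 in control and 4.98, 3.19 and 4.33 in denervated muscle. All 3 WT control arrays and 2 of 3 KO control arrays were well above background, and none of the 6 denervated arrays was. Dach2 was at least 3.13-fold lower in denervated WT muscle and at least 2.15-fold lower in denervated KO muscle. The limma fit to the measured signals gave adjusted p of 1.08e-06 in WT and 3.28e-06 in KO, which do not test these bounds. The probe was dim even at its brightest, so no larger fold can be given. The other 2 Dach2 probes, A_51_P423911 and A_52_P247559, were above background on none and on 1 of 12 arrays, and that 1 was a WT control array. The window at the second of 2 listed Dach2 starts holds a Runx hexamer (TGTGGT, searched on both strands) 60 bases before that start. Such a hexamer lies in 4 of the 17 windows of the set and in 16.76% of all windows. These 30 bases are shown with the hexamer in capitals (RefSeq, GRCm38.p6, chrX:113298184-113298213, plus strand):
Dach2: ctcgggagggggTGTGGTgagggtgggctc

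Runx1, the Runt factor known for its induction after nerve injury, had the widest separation among the 10 genes. On probe A_51_P206585 (chr16:92493027-92493086, mm8, minus strand) the signal was 10.2, 17.5 and 7.73 in WT control and 1729, 939.7 and 1477 in WT denervated muscle. KO arrays gave signals of 23.3, 5.73 and 32.3 in control and 1855, 1444 and 1650 in denervated muscle. No WT control array and 2 of 3 KO control arrays were above background, and all 6 denervated arrays were far above it. Runx1 was at least 89.2-fold higher in denervated WT muscle. The limma fit to the measured signals gave an adjusted p of 2.27e-06 there, which does not test the bound. The fitted change in KO was 6.29 ± 0.49 (adjusted p = 3.46e-06), with 1 KO control array below background. With that array at the lowest signal well above background, the KO difference was 5.78 on the log2 scale, or 55.0-fold. A second probe, A_52_P202358, was measured on all 12 arrays and rose less, by 1.55 ± 0.30 or 2.92-fold in WT and 1.39 ± 0.30 or 2.62-fold in KO (adjusted p = 0.0019 and 0.0028, each kept probe tested on its own). Its listed position spans 30453 bases, so the stretch it binds is not a single block of mm8. Where 18.7% of all genes rose in WT and 23.7% in KO, 2 of 8 leukocyte and macrophage markers rose in WT and 5 in KO. Their summed signal was 4.14 to 5.09 in WT control and 5.55 to 6.40 in WT denervated muscle, and 3.06 to 6.60 and 6.63 to 8.47 in KO muscle, again in units of the 75th percentile.

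Runx2, the regulator of bone cells, rose from levels at or below background. Its brightest probe, A_51_P230942 (chr17:44067120-44067179, mm8, minus strand), is printed in 10 spots per array. It gave -4.36, -4.45 and -4.43 in WT control and -2.80, -3.03 and -3.16 in WT denervated muscle. KO levels of Runx2 were -3.75, -5.25 and -5.11 in control and -2.95, -3.02 and -3.22 in denervated muscle. All 6 denervated arrays were above background against 1 of the 6 control arrays, KO control replicate 1. Runx2 was at least 2.28-fold higher in denervated WT muscle. The limma fit to the measured signals gave an adjusted p of 0.0047 there, which does not test the bound. In KO the fitted rise was 1.64 ± 0.32 (adjusted p = 0.0015), but 2 of the 3 control arrays behind it were not above background. With these at the lowest signal well above background, the KO difference was 0.82 on the log2 scale. When slide was a block the WT change was 0.96 (adjusted p = 0.0584). A neighbouring probe, A_52_P415319 (chr17:44067258-44067317), was above background on 2 of 3 denervated arrays in each genotype and on no control array. It was at least 1.63-fold higher in denervated WT and at least 1.38-fold higher in denervated KO muscle. The other 2 Runx2 probes were above background on no array.

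Of 7 bone genes that depend on Runx2, 4 were measured. Over all genes tested, 39.2% changed in WT and 46.9% in KO. In WT, Spp1, which encodes osteopontin and is also made by macrophages and damaged muscle, rose by 2.28 ± 0.60 (adjusted p = 0.0118). Dmp1, a bone matrix protein, was at least 2.38-fold higher, and the limma fit to its measured signal gave an adjusted p of 0.0355. Alpl, tissue-nonspecific alkaline phosphatase, fell by 1.78 ± 0.31 (adjusted p = 0.0011). Neither the Spp1 nor the Dmp1 call held when slide was a block (adjusted p = 0.071 and 0.307). In KO, 1 of the 4 changed: Alpl fell by 2.35 ± 0.31 (adjusted p = 1.36e-04). In denervated muscle Dmp1, above background on no KO array, was at least 3.29-fold lower in KO than in WT. The limma fit to its measured signal gave an adjusted p of 0.0493. This call did not hold when slide was a block (adjusted p = 0.0809) or under most other alternatives. Mmp13 lay the other way but did not pass. Its level was -5.56 in WT denervated muscle, above background on 1 of 3 arrays, and -0.33 in KO denervated muscle, above it on all 3. Sp7, which defines osteoblasts, was above background on no array. The median over the 4 genes was 1.05 in WT, or 0.63 with genes not above background in 1 group set at their bound, and -0.03 in KO, or 0.08 with such genes at their bound.

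Runx3, the family member best known from T cells, had a lower mean level in denervated muscle. The standard deviation of its log2 level was 0.34 in WT control and 0.35 in WT denervated muscle. It was larger in KO, at 0.77 in control and 0.48 in denervated muscle. Probe A_51_P494992 (chr4:134448120-134448179, mm8, plus strand) gave -2.67, -1.99 and -2.30 in WT control and -3.05, -3.67 and -3.07 in WT denervated muscle. Runx3 in KO muscle gave -3.28, -1.97 and -1.90 in control and -3.70, -3.74 and -2.88 in denervated muscle. The WT groups did not overlap and the KO groups did, because the first KO control array was as low as denervated arrays. The difference in WT was -0.94 ± 0.37, which did not pass (adjusted p = 0.0659); with the replicate number as a block it passed (adjusted p = 0.0488, or 0.0478 with the block within genotype), and also without the first KO control array (adjusted p = 0.0205) and in a fit of the 6 WT arrays alone (adjusted p = 0.0227). In KO, Runx3 fell by 1.06 ± 0.37 (adjusted p = 0.0368), and the call was lost without either of 2 KO denervated or 2 KO control arrays (adjusted p from 0.105 to 0.131) and in a fit of the 6 KO arrays alone (adjusted p = 0.0738). Of 7 T cell markers 3 were measured. Where 20.6% of all genes fell in WT and 23.2% in KO, 1 of these 3 markers, Cd4, fell in both genotypes. Their summed signal was 0.33 to 0.41 in WT control and 0.17 to 0.26 in WT denervated muscle, and 0.20 to 0.42 and 0.18 to 0.26 in KO muscle; Cd3g and Cd8a were above background on no array. Their part in the Runx3 result was not tested. The second Runx3 probe, A_52_P666059, was above background on no array.

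Although Runx1 and Runx2 rose and Runx3 did not, the first listed start of each of the 3 genes lies near the same pair of Runx hexamers. The sequences below are shown for that pair, ACCACANNACCACA, with each hexamer in capitals. On either strand the pair occurs in 7 of the 32851 promoter windows of 300 bases, and 3 of those 7 are these. Counted from the start base as 0, the excerpts begin at base 20 for Runx1, base 15 for Runx2 and base -142 for Runx3 (RefSeq, GRCm38.p6, chr16:92826025-92826054, minus strand, chr17:44814583-44814612, minus strand, and chr4:135120503-135120532, plus strand). A match is a stretch of letters, and no binding was measured.
Runx1: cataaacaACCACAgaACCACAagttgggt
Runx2: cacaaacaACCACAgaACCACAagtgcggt
Runx3: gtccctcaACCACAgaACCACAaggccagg

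Cbfb, the shared partner of the Runx proteins, did not pass the test in either genotype on its brighter probe. A_51_P300216 (chr8:108106866-108106925, mm8, plus strand) gave 5.0, 4.93 and 5.16 in WT control and 4.80, 5.03 and 4.86 in WT denervated muscle. In KO muscle it gave 4.83, 5.03 and 4.84 in control and 3.83, 4.82 and 4.67 in denervated muscle. The WT groups overlapped, and the first KO denervated array stood apart from the other two. In WT the difference was -0.13 ± 0.22 (adjusted p = 0.674), and in KO it was -0.46 ± 0.22 (adjusted p = 0.114). Without the second KO denervated array the KO fall was 0.65 and passed (adjusted p = 0.0422). The second Cbfb probe, A_52_P586157 (chr8:108105080-108105139), gave 1.16, 1.1 and 1.11 in KO control and 0.30, 0.22 and 0.13 in KO denervated muscle, with no array apart. Tested on its own, that probe fell by 0.91 ± 0.16 in KO (adjusted p = 8.78e-04) and by 0.44 ± 0.16 in WT (adjusted p = 0.0487), so the probes of Cbfb differed on whether it changed.

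**Figure D2:**
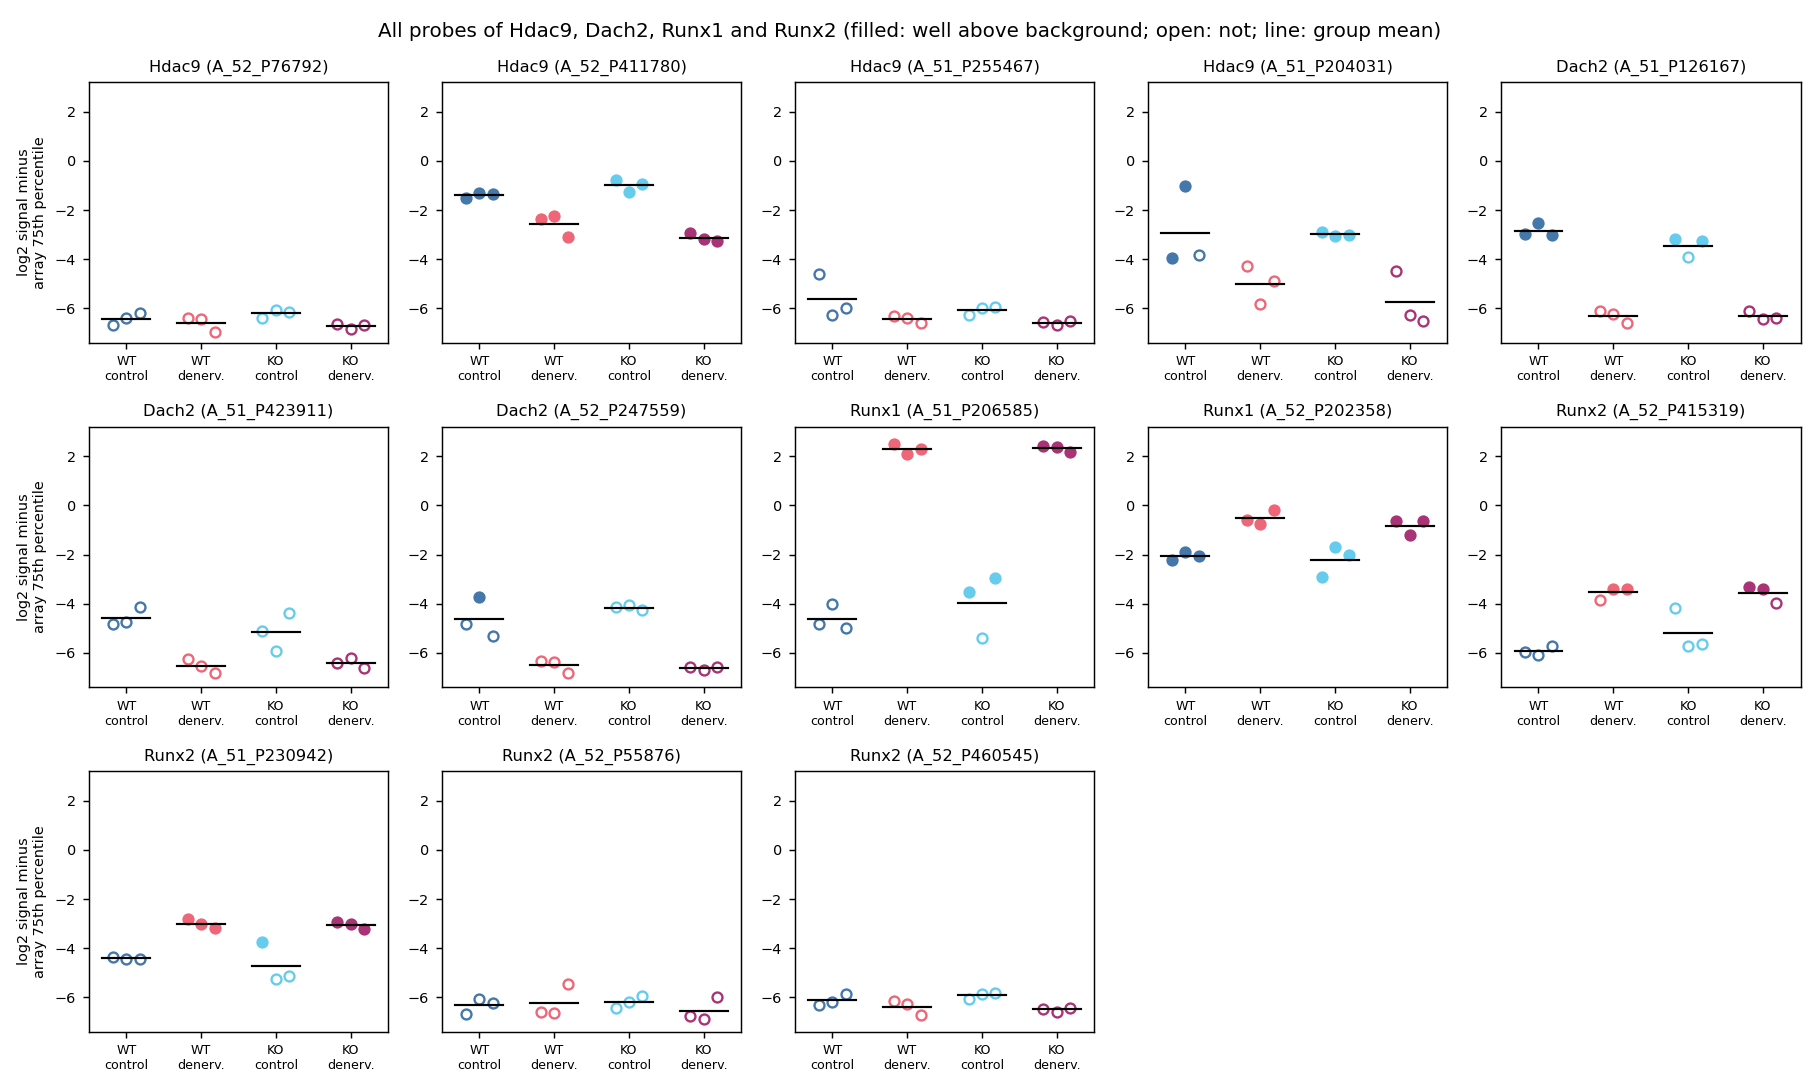
Log2 level on the 12 arrays for every probe of Hdac9, Dach2, Runx1 and Runx2, 3 points per group on 1 shared scale; filled points were well above background, open points were not, and the line is the group mean. Of the 4 Hdac9 probes, 2 were above background on no array, and the Runx1 probes differed in the size of their rise.

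The loss of Smad4 was compared with WT in each condition, to ask whether these regulators or their response to denervation depend on it. In control muscle 0 of the 10 genes passed with limma (all adjusted p = 0.9997), and 1 had an unadjusted p under 0.05; 1 of all genes tested passed, or 0.00656%. In denervated muscle 0 of 10 passed (lowest adjusted p = 0.242), 1 had an unadjusted p under 0.05, and the background was 2.19%. On the probe standing for each gene, groups did not overlap for 2 of 10 genes in control muscle, where 8.55% of all genes did not. For denervated muscle the figures were 0 of 10 and 21.7%. Averaged over both conditions 0 of 10 passed (lowest adjusted p = 0.512, 0 with an unadjusted p under 0.05), and the background was 0.912%.

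The intervals show what sizes these 3 arrays a group could miss. In each condition the 95% interval of the genotype difference lay within 1 log2 unit of 0 for 8 of the 10 genes. In denervated muscle these included Dach2 (interval -0.50 to 0.48), which was above background on no denervated array. In control muscle they included Runx2 (interval -0.99 to 0.40), above background on no WT and 1 KO control array. Both intervals compare signals mostly not above background, so they cannot limit the genotype difference of these genes. For Hdac4 in denervated muscle the difference was -0.00, with an interval from -0.30 to 0.30. For Runx1 on its bright probe it was 0.03 in denervated muscle, with an interval from -1.05 to 1.1, and its interval in control muscle reached 1.73.

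The 2 genes without overlap in control muscle were Hdac9 and Dach2. Hdac9 was 0.39 higher in KO control arrays (interval -0.10 to 0.87), and Dach2 was 0.61 lower (unadjusted p = 0.0188, interval -1.1 to -0.12). On slides that held both genotypes, the Dach2 difference was -1.37 and -0.24. Another Dach2 probe, A_52_P247559, differed the other way by 0.45, near background. The second kept Hdac9 probe, A_51_P204031, had a difference of -0.05 in control muscle, and its groups overlapped. In denervated muscle Hdac9 was 0.56 lower in KO (unadjusted p = 0.0283, interval -1.04 to -0.07), and its groups overlapped. The second Cbfb probe, A_52_P586157, had a difference of -0.48 ± 0.16 there, with groups apart. With limma on each kept probe it did not pass (unadjusted p = 0.0117, adjusted p = 0.170). The brighter Cbfb probe had a difference of -0.46 (interval -0.95 to 0.03), and its groups overlapped.

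**Figure D3:**
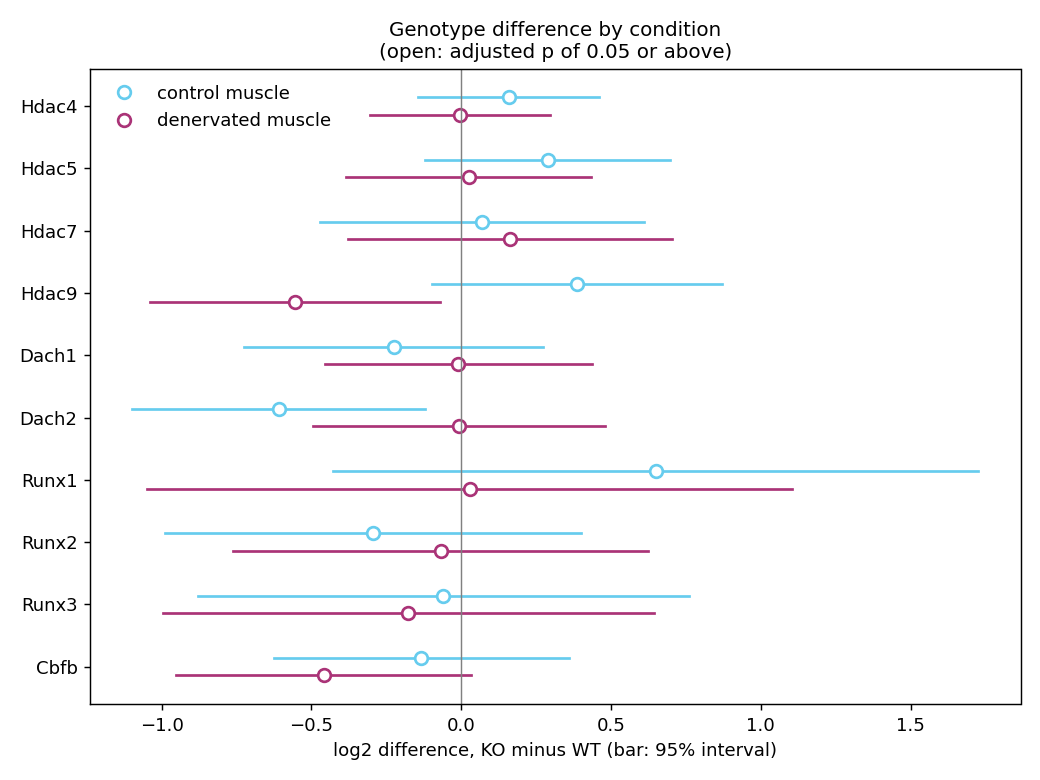
Log2 difference, KO minus WT, with its 95% interval for the 10 genes in control and in denervated muscle; every circle is open because no difference passed an adjusted p of 0.05. Hdac9 lies at 0.39 in control and at -0.56 in denervated muscle, and the widest intervals are those of Runx1.

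The denervation response itself was compared between genotypes with an interaction term. Of the 10 genes, 0 passed with limma, 1 had an unadjusted p under 0.05, and the background was 0.184%. That 1 was Hdac9, whose fall was larger in KO by 0.94 ± 0.31 (unadjusted p = 0.0114, adjusted p = 0.356, interval of the difference -1.63 to -0.26). With limma on each kept probe, the second Hdac9 probe, A_51_P204031, gave a term of -0.71 ± 1.06 (unadjusted p = 0.517). Its denervated arrays were not above background. The Dach2 term was 0.60 (interval -0.09 to 1.29), from a fit in which denervated arrays were not above background. For Hdac4 it was -0.16 (interval -0.59 to 0.26), so a difference of more than 0.59 between genotypes lay outside its interval.

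Genes known to act with or under the 10 regulators were read from 7 lists, also chosen with earlier results of these data known. Of all genes tested, 39.2% changed in WT, 46.9% in KO, and 2.19% between genotypes in denervated muscle. Of 13 genes on which the Hdac4, Dach2 and myogenin axis is known to act, 8 rose and 2 fell in both genotypes, with a median of 3.24 in WT and 2.51 in KO, also with such bounds. Chrna1, the alpha subunit of the muscle acetylcholine receptor, rose by 4.51 ± 0.13 in WT and 4.36 ± 0.13 in KO. Chrnd, the delta subunit, rose by 5.96 ± 0.16 in WT and was at least 37.4-fold higher in KO. Chrng, the fetal gamma subunit, was at least 528-fold higher in WT and rose by 8.06 ± 0.69 in KO, or by 7.93 with the 2 of 3 KO control arrays that were not above background set at the lowest signal well above it. Gadd45a, a stress gene induced downstream of Hdac4, rose by 3.92 ± 0.19 and 4.20 ± 0.19. Each had an adjusted p under 1e-05 in the limma fit to measured signals, which does not test the bounds. In denervated muscle 2 of the 13 were lower in KO than in WT: Chrnd by 0.89 ± 0.16 (adjusted p = 0.0188) and Musk, the kinase that gathers receptors at the synapse, by 1.39 ± 0.29 (adjusted p = 0.0345). Neither call held when slide was a block (adjusted p = 0.0634 and 0.073), and that of Musk was also lost with the replicate number as a block (adjusted p = 0.0655).

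Among 17 measured kinases and 14-3-3 proteins that move class II deacetylases, 4 rose and 3 fell in WT, and 3 rose and 6 fell in KO. The share of all genes that changed was 39.2% in WT and 46.9% in KO. Sik1, a salt-inducible kinase that phosphorylates class IIa deacetylases, rose by 3.40 ± 0.30 in WT and 3.53 ± 0.30 in KO. Camk2a, a calcium-dependent kinase, fell by 3.13 ± 0.23 and 2.74 ± 0.23, while its relative Camk2d rose by 1.70 ± 0.22 and 1.95 ± 0.22. Camk1 fell by 1.18 ± 0.19 and 1.48 ± 0.19. The list as a whole had a median of -0.17 in WT and -0.00 in KO, and Camk4 was above background on no array.

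Of 11 Mef2 factors and corepressors, 2 rose and 2 fell in each genotype, where 39.2% of all genes changed in WT and 46.9% in KO. Mef2a, a Mef2 factor of muscle, rose by 1.3 ± 0.13 in WT and 1.47 ± 0.15 in KO. Rfxank, an ankyrin-repeat protein that binds class IIa deacetylases, fell by 0.98 ± 0.16 and 1.22 ± 0.16. Ncor1, the corepressor that links them to Hdac3, fell by 0.51 ± 0.14 in WT (adjusted p = 0.0156; 0.116 with slide as a block) and by 0.93 ± 0.14 in KO. With the mean over each gene's kept probes, the KO calls of Mef2a and Ncor1 were lost (adjusted p = 0.0724 and 0.141). Of the 7 other histone deacetylases 1 rose and 2 fell in WT, and 1 rose and 1 fell in KO. Hdac6, a cytoplasmic tubulin deacetylase, rose by 0.93 ± 0.18 in WT and 0.82 ± 0.18 in KO, and Hdac10 fell by 0.49 ± 0.15 (adjusted p = 0.0218; 0.165 with slide as a block and 0.0665 with the replicate block within genotype) and 0.61 ± 0.15.

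Of 8 sine oculis homeobox and Eya partners of Dach, 1 rose and 3 fell in WT, and none rose and 2 fell in KO. Over all genes tested, 39.2% changed in WT and 46.9% in KO. Six2, a homeobox factor, fell by 2.48 ± 0.31 in WT and 2.49 ± 0.31 in KO, and Eya1, a coactivator, by 0.97 ± 0.18 and 0.64 ± 0.18. Of 11 Runx cofactors, 2 rose and 3 fell in WT, and 1 rose and 3 fell in KO. Tle5, a short Groucho-family protein, fell by 1.56 ± 0.25 in WT and 2.24 ± 0.25 in KO. Runx1t1, a corepressor known as a fusion partner of RUNX1 in leukaemia, rose by 1.02 ± 0.28 in WT (adjusted p = 0.0133; 0.116 with slide as a block) and 2.49 ± 0.28 in KO (adjusted p = 3.93e-05). It was the list's 1 gene that differed in denervated muscle, higher in KO by 1.49 ± 0.28 (adjusted p = 0.0191; 0.0741 in a fit of the 6 denervated arrays alone). The medians of these 2 lists lay between -0.22 and 0.14 in both genotypes.

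**Figure D4:**
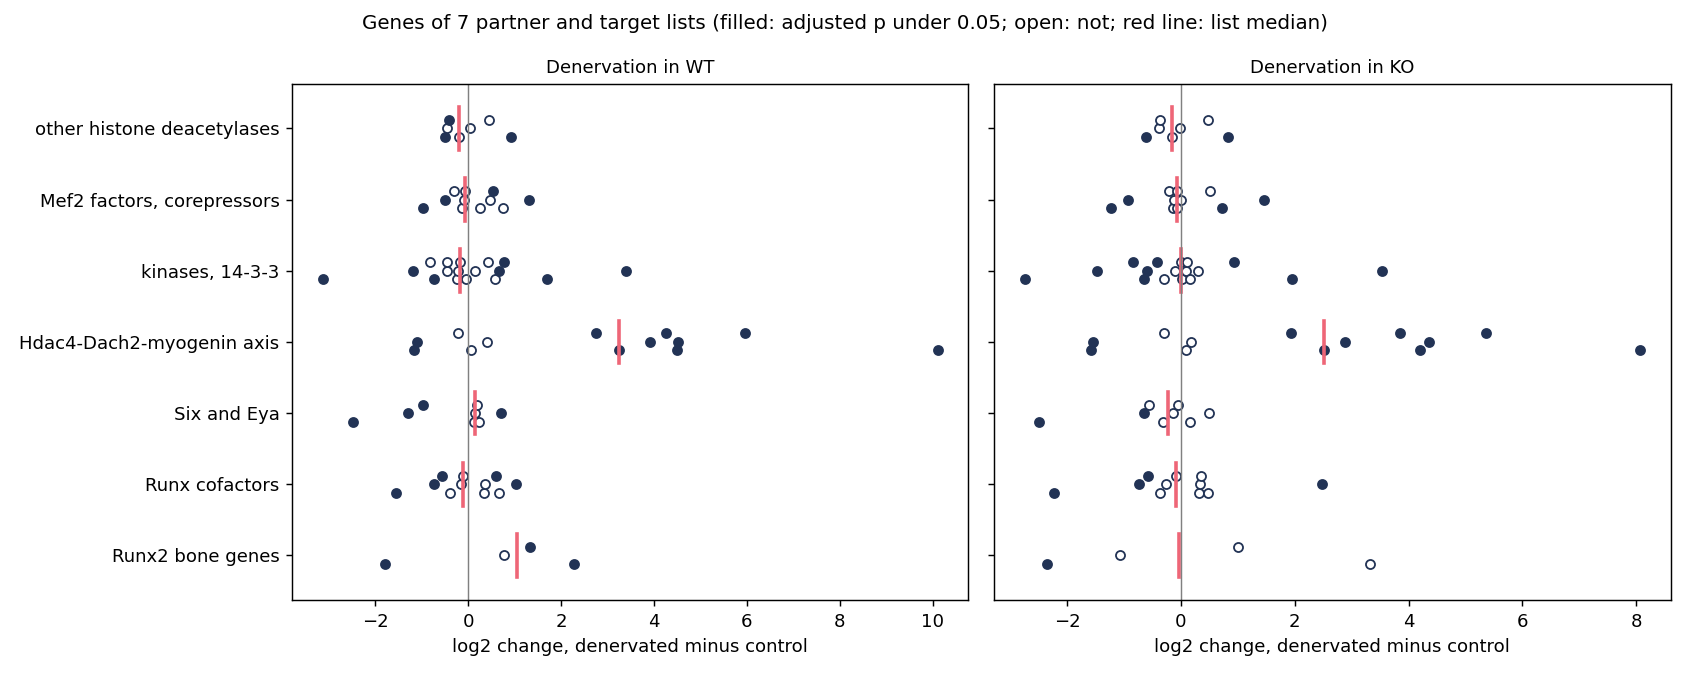
Fitted log2 change, denervated minus control, of each measured gene of the 7 lists in WT and in KO mice; filled points passed an adjusted p of 0.05, open points did not, and the red line is the list median. The list of genes under the Hdac4, Dach2 and myogenin axis has a median of 3.24 in WT and 2.51 in KO, and the medians of 5 other lists lie within 0.3 of 0 in both.

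The genes most like each regulator over the arrays were found by Pearson correlation of the scaled log2 signal, as a description only, since arrays of 4 groups shared the denervation contrast. Closest to Hdac4 were Tmem181a and Acot6 (r = 0.997 for both, 12 arrays), and closest to Dach2 were Egflam (r = 0.989) and Tppp (r = 0.988). For Runx1 they were Primpol (r = 0.989) and Gdf5 (r = 0.988), and for Runx2 Cep135 (r = 0.980) and Nfe2l2 (r = 0.973). Hdac9 was closest to Klhl23 (r = 0.982) and Tafa3 (r = 0.981), and Hdac5 to Jcad (r = 0.974) and Usp38 (r = 0.972). Dach1 was closest to Hey1 (r = 0.979) and Smarca1 (r = 0.978) over the 11 arrays on which it had a value. Hdac7, Runx3 and Cbfb had lower highest values, with r of 0.966 for Snx33, 0.951 for Olfr744 and 0.966 for Etfa.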

How the data were processed

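Total RNA of 12 muscles was hybridised to one-colour Agilent arrays, 1 sample per array, in 4 groups of 3 named by the sample titles. The deposited files hold intensity per spot as written by Agilent Feature Extraction, which per the file headers had removed background (gProcessedSignal); the file headers name version 10.7.3.1 and the submitters' processing notes 10.5.1.1. The series' value table, deposited by the authors as linear signal whose scaling and centring are not stated, was an alternative; after centring by probe it followed the scanner values of the same array. Control and outlier spots were left out, spots of a probe were averaged, and log2 signal minus each array's 75th percentile was used. The filter kept probes called well above background by the scanner software on the 3 arrays of some group, and the brightest kept probe stood for its gene. limma 3.58.1 in R 4.3.3 was fitted to all 15234 genes with 4 group means (8 residual degrees of freedom) and 6 contrasts, adjusted by Benjamini-Hochberg; a change was called at an adjusted p under 0.05. Intervals are 95% intervals from that fit. The limma p-values weigh a group difference against the spread between arrays, pooled over the 4 groups and moderated across all genes. With 3 arrays a group, an exact permutation test of 3 against 3 cannot go below 0.1. The fitting step was also tested on simulated data with known changes. Of 41174 probes, 24375 were named by accession through RefSeq, 6301 by symbol, 2426 by synonym and 8072 by the file's own name.

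The 10 genes and the lists were chosen with earlier results of these data known. Named with values were all 10 genes, up to 4 genes with the lowest adjusted p per list and comparison, and the 2 most correlated genes of each. Control and denervated arrays of the same replicate number had deviations with r = 0.305, 0.107 and 0.232 in WT and 0.0899, 0.0153 and 0.175 in KO. For KO control 1 with denervated 2, r was 0.108. Denervated WT and KO arrays of the same number, which cannot share an animal, had r of 0.203, 0.299 and 0.007. These values therefore cannot show that the numbers pair animals. The main fit was unpaired, and the replicate number served only as an alternative block. Alternatives were normexp background correction, quantile and median scaling, the value table, other probe filters and rules, slide, scan day and replicate blocks, the 6 arrays compared alone, and leaving out each array.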

Additional observations from a re-analysis of the deposited data

How the results depend on the processing

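With normexp background correction 3 of the 10 genes were called in WT instead of 8, and 3 instead of 9 in KO; the genes called over the whole array fell to 1908 from 5979 in WT and to 2717 from 7146 in KO, and the cause was not tested. Hdac4, Hdac5 and Runx1 kept their calls there, and Eya2 in WT changed from -1.29 to 0.0628. Under the other alternatives the count of the 10 genes called stayed within 1.5 times in all 6 comparisons, and was 0 in the genotype comparisons. The replicate block changed no other call among the 10 genes than that of Runx3 in WT. Sign changes between values that never passed were not counted as reversals. Where every array had to be well above background, Dach2 and Runx2 were not tested, and Runx1 was read from its dimmer probe. Genes called between genotypes in denervated muscle were 333, and 25 with normexp, 203 without a filter, 126 in the 6 arrays alone and from 151 to 220 where leaving out 1 of 4 denervated arrays lowered the count over 1.5 times. Averaged over conditions they were 139, and 6 with normexp, 62 without a filter and 80 to 88 without 1 of 4 arrays; interaction calls were 28, and ranged from 0 to 51. In control muscle 1 gene was called, and 0 to 5 under alternatives. With array median scaling 32.2% of calls in denervated muscle were higher in KO, against 43.8%, and 41.7% of interaction calls, against 53.6%. Signals near background limit Dach2, Runx2 and the control levels of Runx1; fitted changes there rest partly on arrays not above background. Setting such arrays at the lowest signal well above background, and leaving arrays out of the bounds, were chosen after seeing the data.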
